A study of Mus musculus with 4 samples.

Results

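The genes described here are 38 genes of the lysosome, namely its hydrolases, their soluble helpers, its membrane proteins and the transcription factor gene Tfeb, measured in the cervical spinal cord of NC/Nga mice. They were chosen by name: every probe whose symbol in the annotation of the array platform is one of the 38 was taken, and all 38 were found among the 19057 gene symbols on the array, with 85 probes. NC/Nga is an inbred mouse strain that develops a dermatitis resembling the human atopic disease in an ordinary animal room and stays free of it in clean housing. All mice were NC/Nga males of 9 weeks. The groups were 2 arrays from mice in specific-pathogen-free (SPF) housing with a normal phenotype and 2 arrays from conventionally housed mice with the atopic dermatitis phenotype. Housing and skin phenotype follow the same split, so they cannot be told apart. Nothing in the labels tells if the arrays of a housing group came from separate mice, and the p-values therefore cover only the spread between arrays, which may be technical.

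Lysosomes are acidic vesicles that break down proteins, glycans and lipids delivered by endocytosis and autophagy. Cathepsins and other peptidases cut proteins, glycosidases and sulfatases trim sugars and sulfate groups from glycans and glycolipids, and lipases and ceramidase act on lipids. Membrane proteins protect the vesicle wall and move ions and cholesterol across it, and Tfeb encodes a transcription factor that binds E-box motifs in many lysosomal promoters. In the nervous system, inherited loss of several of these enzymes causes storage disease of neurons or of myelin, and microglia, the phagocytes of the cord, are rich in lysosomes.

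None of the 35 lysosomal genes that could be tested passed the threshold between conventional and SPF cord. The lowest unadjusted p-values belonged to the cathepsin genes Ctsh (log2 difference -0.79 ± 0.25) and Ctsa (-0.33 ± 0.12), which lay below SPF levels, and to the acid lipase gene Lipa (0.47 ± 0.15), which lay above them. The 9 glycosidase genes all had differences below 0, but small ones, with a median of -0.06. In all but 7 of the 35 genes, the arrays of at least 1 group lay as far from each other as the group means did. Throughout, a difference is the conventional mean less the SPF mean in log2 units of normalized signal, and errors are standard errors of limma's model with n = 2 arrays per group.

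Because Tfeb acts through E-boxes, the promoters of the 38 genes were searched for the E-box core CACGTG, which reads the same on both strands. RefSeq windows of GRCm38.p6, from 250 bases before to 50 bases after the annotated gene start, were at hand for 34 of the 38 genes. The core stood in a window of 14 of these 34 genes (41.2%), against 2187 of 27025 genes with any window (8.09%). The share was 29.5% among 44 further lysosomal genes, listed under the results. The members' windows were also richer in G and C, with a median of 56.7% against 52.7% over all windows, and the part of base composition in the motif share was not tested. The longer palindrome known as the CLEAR element, which is the core with GT before it and AC after it, stood in 1 of the 34 genes (2.94%) against 0.370% of all genes. Of 22 matches to the core, 14 began within 100 bases before the gene start. Positions were not counted over all windows, so this share has no background beside it.

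Windows are printed for 3 membrane protein genes that hold the core more than once, and for Ctsa and Lipa, which have the lowest unadjusted p-values among the genes with a window. All are written 5′ to 3′ on the strand of the gene, with each E-box core in capitals. Lamp1 lies at chr8:13158911-13159210 (+ strand), Mcoln1 at chr8:3500269-3500568 (+), Cln3 at chr7:126583187-126583486 (- strand), Ctsa at chr2:164833523-164833822 (+) and Lipa at chr19:34527425-34527724 (-). The Cln3 and Ctsa windows belong to the annotated start that holds the core, and each of these genes has another window without it.
Lamp1: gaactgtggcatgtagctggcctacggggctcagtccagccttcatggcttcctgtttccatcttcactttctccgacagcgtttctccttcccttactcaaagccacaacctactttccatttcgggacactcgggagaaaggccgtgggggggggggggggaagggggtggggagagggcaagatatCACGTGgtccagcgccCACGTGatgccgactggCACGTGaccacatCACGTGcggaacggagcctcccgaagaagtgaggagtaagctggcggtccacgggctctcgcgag
Mcoln1: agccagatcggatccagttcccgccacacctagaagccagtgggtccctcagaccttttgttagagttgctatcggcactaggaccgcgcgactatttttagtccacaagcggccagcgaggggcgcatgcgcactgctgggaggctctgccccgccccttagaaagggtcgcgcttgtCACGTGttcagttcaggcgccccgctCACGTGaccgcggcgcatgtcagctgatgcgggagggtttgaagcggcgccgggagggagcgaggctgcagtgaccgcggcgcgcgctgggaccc
Cln3: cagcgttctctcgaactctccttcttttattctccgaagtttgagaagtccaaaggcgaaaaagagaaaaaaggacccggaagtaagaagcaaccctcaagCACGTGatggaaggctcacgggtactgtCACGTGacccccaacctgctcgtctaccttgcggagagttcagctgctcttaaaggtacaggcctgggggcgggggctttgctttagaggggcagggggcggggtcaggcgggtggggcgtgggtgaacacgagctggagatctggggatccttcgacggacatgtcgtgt
Ctsa: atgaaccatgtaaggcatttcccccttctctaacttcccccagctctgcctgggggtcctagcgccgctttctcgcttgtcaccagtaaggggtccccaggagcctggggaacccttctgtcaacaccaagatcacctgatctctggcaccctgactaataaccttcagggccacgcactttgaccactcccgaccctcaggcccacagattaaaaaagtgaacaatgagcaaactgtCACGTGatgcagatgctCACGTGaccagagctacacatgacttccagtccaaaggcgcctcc
Lipa: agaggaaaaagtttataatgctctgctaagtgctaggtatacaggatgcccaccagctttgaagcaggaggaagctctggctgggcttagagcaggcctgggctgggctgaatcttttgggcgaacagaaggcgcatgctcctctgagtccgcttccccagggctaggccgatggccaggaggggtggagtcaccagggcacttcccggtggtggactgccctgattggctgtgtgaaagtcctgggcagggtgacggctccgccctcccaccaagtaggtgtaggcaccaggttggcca

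The Lamp1 window held 4 cores, beginning 61, 45, 28 and 15 bases before the start, the most of any of the genes. Mcoln1 held cores 71 and 45 bases before it. Cln3 held them 149 and 121 bases before it, and the second of these is the CLEAR element. In the Ctsa window a core lay 12 bases before the start and another 5 bases after it, while the Lipa window held none. A match is a run of letters and not a measured binding site. On the arrays, the median difference between conventional and SPF cord was -0.04 over the 12 tested genes with the core and -0.04 over the 19 without it, and the 4 genes with no window (Ctsb, Ctsh, Asah1 and Npc1) had a median of -0.11.

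**Figure D1:**
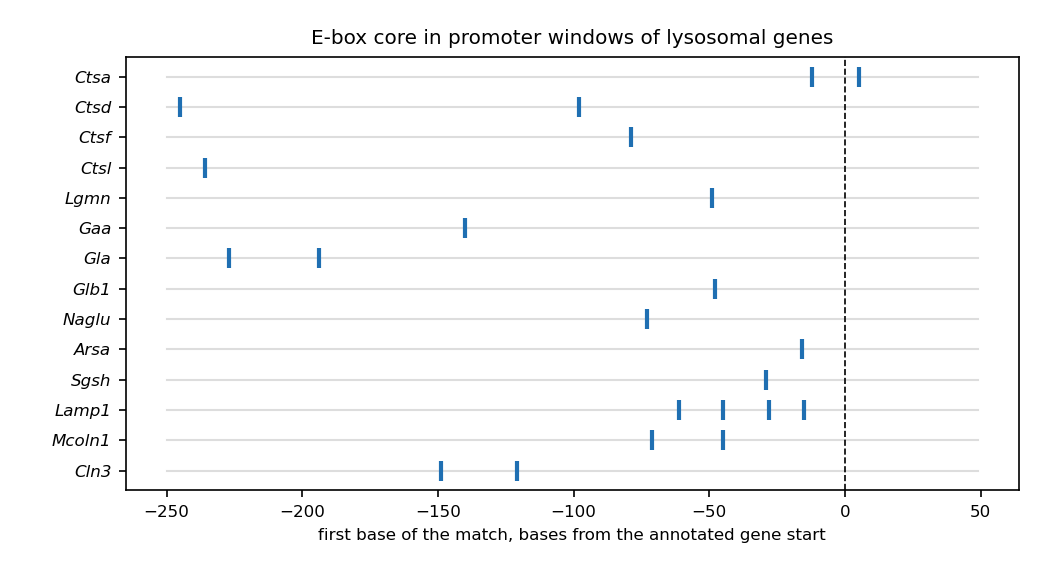
Position of each E-box core (vertical mark) in the promoter windows of the 14 lysosomal genes that hold one; the x axis is the distance in bases from the annotated gene start (dashed line) and grey lines are the searched windows. The 4 marks of Lamp1 lie within 61 bases of the start, whereas those of Gla, Gaa and Ctsl lie farther upstream.

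The 4 arrays were alike in depth, with 44.9% to 46.3% of probes above background (detection p under 0.05) and median raw signals of 113.6 to 119.4. A feature is a named gene, represented by its brightest probe, or an unnamed probe, and 14634 features with signal above background on at least 2 of the 4 arrays were tested together. Of these, 0 were called at an adjusted p under 0.05 (0% of features), and 443 had an unadjusted p under 0.05. The position genes Hoxb5, Hoxc6 and Hoxb8 were above background on all arrays, as were the oligodendrocyte genes Mbp and Mag and the astrocyte gene Gfap. Hoxc8 was above background on 2 arrays, while Hoxc4, Hoxc5 and the neuronal genes Snap25 and Nefl had no probe that passed the filter. A transcript whose probe is not above background is therefore not shown to be absent from the cord. In bulk tissue, fewer cells of a type and less RNA per cell cannot be told apart.

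Of the 85 lysosomal probes, 63 passed the filter, and they represent 35 of the 38 genes; 33 of the 35 were above background on all 4 arrays. Ctsd (cathepsin D, an aspartic protease), Sgsh (sulfamidase) and Tfeb did not pass and were not tested. The single Ctsd probe had raw signals of 109.1 and 110.7 on the SPF arrays and 107.7 and 101.0 on the conventional arrays, none well above background. Each of the 3 Sgsh probes and 2 Tfeb probes was above background on at most 1 array. For Tfeb, 1 probe had raw signals of 113.1 and 131.8 in SPF and 110.8 and 111.3 in conventional cord, above background on SPF replicate 2 alone. Nothing can be said from these arrays on the level of the 3 genes in either group.

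Of the 35 tested genes, 0 passed at an adjusted p under 0.05 and the adjusted p was 1 for each. An unadjusted p under 0.05 was seen for 3 of them (8.57%), against 3.03% of all features. Without SPF replicate 2 there were 5 such genes (4.93% of all features passed in that fit), and without conventional replicate 2 there were 0 (2.74% of all features). By direction, 2 were below SPF, where the share over all features was 1.72%, and 1 above, where it was 1.31%. Both conventional arrays lay below both SPF arrays in 8 genes (22.9%, against 15.1% of all features), namely Ctsa, Ctsh, Tpp1, Arsa, Npc2, Grn, Lamp1 and Npc1. Both lay above in 2 genes (5.71%, against 15.6%), namely Lipa and Gm2a. The difference was below 0 in 24 of 35 genes (68.6%, against 50.1% of features), and its median was -0.05 against -0.00 over all features. That count was 31 of 35 with median scaling, where the median of all features was itself -0.04, and 17 of 35 without conventional replicate 2. An absolute difference of at least 0.2 was seen in 11 of 35 genes (31.4%), which is close to the share of 31.3% over all features. Taken probe by probe, 44 of the 63 lysosomal probes had a difference below 0. Of the 63, 12 lay below without overlap, 3 lay above without overlap and 4 had an unadjusted p under 0.05, with 0 called. Over all 21065 probes, the shares were 14.5% below, 16.4% above, 3.15% with such a p and 0% called. The 12 include a Galc probe that passed the filter through the SPF arrays alone. Both Ctsh probes are among the 4, and probes of the same gene are not independent of each other.

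**Figure D2:**
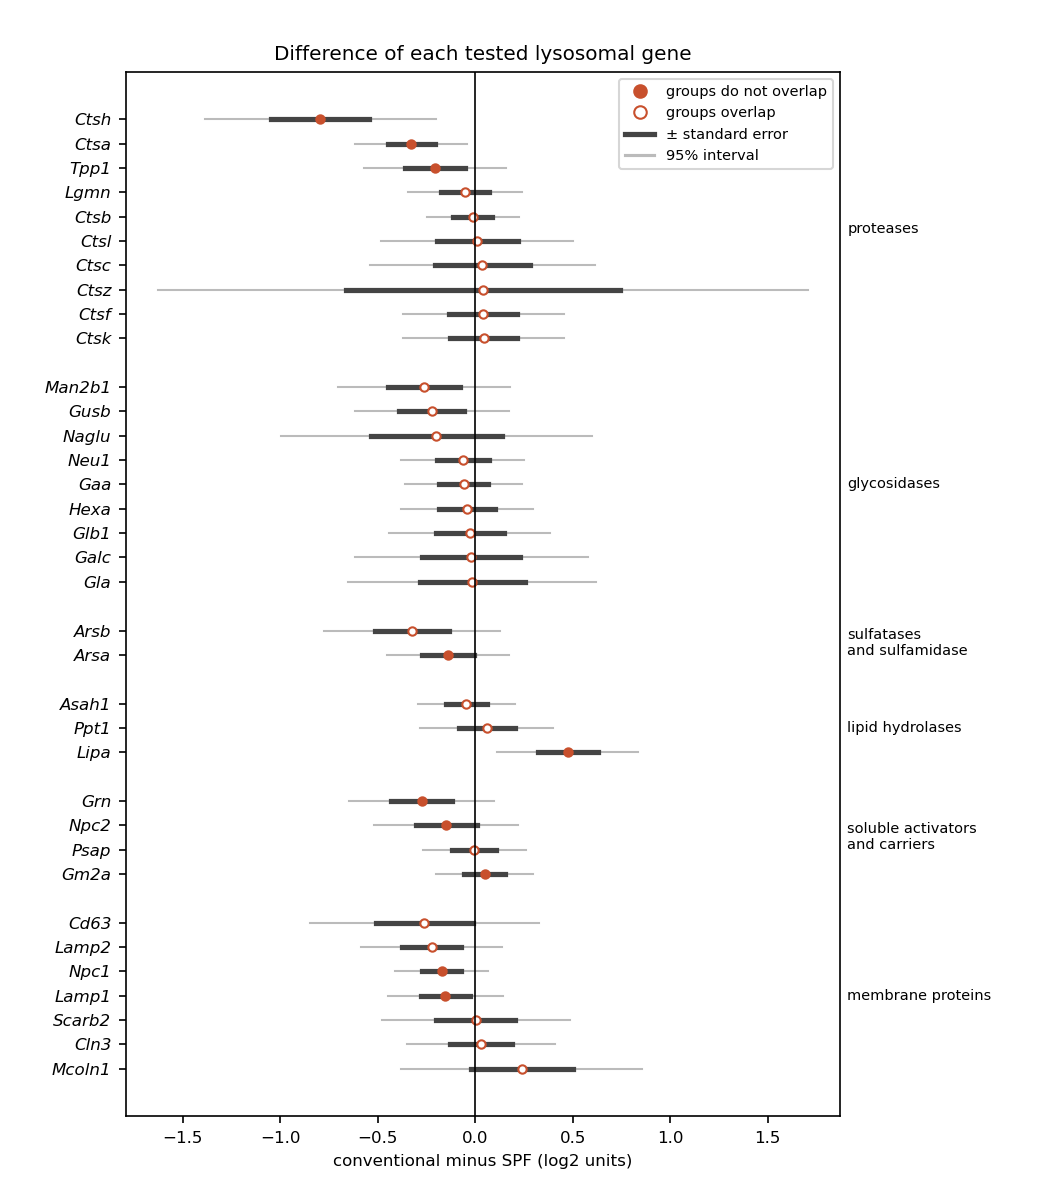
Difference between conventional and SPF cord (x axis, log2 units) of the 35 tested lysosomal genes, grouped by role; points are the model's differences, filled where the 2 groups do not overlap, thick bars are ± 1 standard error and thin bars 95% intervals (n = 2 arrays per group). Only the intervals of Ctsh, Ctsa and Lipa leave out 0, before any adjustment for the number of features tested.

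Among the proteases, Ctsh, which encodes a lysosomal cysteine protease with aminopeptidase activity, had the largest difference of the 35 genes and ranked 129th of the 14634 features by absolute difference. Its brightest probe stood at 8.76 and 9.25 log2 units on the SPF arrays and at 8.51 and 7.92 on the conventional arrays. The groups did not overlap, but the gap between the nearest arrays of the groups was smaller than the gap within either group. The difference of -0.79 ± 0.25 (95% interval -1.39 to -0.20, 1.73-fold lower) had an unadjusted p of 0.0158 and an adjusted p of 1 in limma's test. A further Ctsh probe gave 7.21 and 7.48 against 6.96 and 6.28, with the arrays in the same order and a difference of -0.72 ± 0.27. Leaving out conventional replicate 1 gave -1.08, and leaving out conventional replicate 2 gave -0.50, with the other 2 such fits between them. With the authors' deposited value table the Ctsh difference was -0.49. The same order of the arrays was seen in Cd74, the invariant chain gene of antigen-presenting cells, with 6.67 and 7.15 against 6.17 and 5.69. The 4 tested macrophage markers of a list of 5 (Mrc1, Lyve1, Pf4 and Cd74, without Cd163) were likewise highest on SPF replicate 2, and 3 of them lowest on conventional replicate 2. In Mrc1, Lyve1 and Pf4, unlike Ctsh and Cd74, SPF replicate 1 lay below conventional replicate 1. The summed normalized signal of the 4 markers was 176 and 401 in SPF against 244 and 88.0 in conventional cord. The 9 tested meningeal fibroblast markers of 10 were also all highest on SPF replicate 2 and lowest on conventional replicate 2, with summed signals of 7618 and 29555 against 11265 and 4919. The part of these cells in the Ctsh difference was not tested.

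Ctsa encodes cathepsin A, a serine carboxypeptidase that also stabilizes beta-galactosidase and neuraminidase in a complex. Its brightest probe stood at 10.27 and 10.39 in SPF and at 10.01 and 9.999 in conventional cord, a difference of -0.33 ± 0.12 with an unadjusted p of 0.0301. The groups lay apart by more than the gaps within them. The other 3 probes of Ctsa that passed the filter gave -0.01, -0.22 and 0.20, so the difference rests on 1 probe. The probe at -0.01 was above background on every array, whereas those at -0.22 and 0.20 lay near background and passed it on only some arrays. The mean of the gene's probes gave -0.09. Glb1 and Neu1, which encode the partners of cathepsin A in that complex, differed by -0.03 ± 0.17 and -0.06 ± 0.13. Tpp1, a tripeptidyl peptidase whose loss causes a childhood lipofuscinosis, stood at 8.87 and 8.68 against 8.56 and 8.57, without overlap (-0.21 ± 0.15).

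The other proteases had differences near 0. Ctsb, the abundant cysteine protease cathepsin B, was among the most even: 12.73 and 12.68 in SPF against 12.70 and 12.69 in conventional cord, a difference of -0.01 ± 0.10 with a 95% interval of -0.25 to 0.22. Lgmn, which encodes the asparaginyl endopeptidase that trims other cathepsins, differed by -0.05 ± 0.12. Ctsc, which activates serine proteases of granulocytes, differed by 0.04 ± 0.24, Ctsf by 0.04 ± 0.17, Ctsl by 0.01 ± 0.21 and Ctsk, the collagen-degrading cathepsin of osteoclasts, by 0.04 ± 0.17. The level of Ctsl lay near background. Ctsc reached 8.67 on conventional replicate 1, the array on which all 6 tested neutrophil markers of a list of 7 were also highest, and 7.97 on conventional replicate 2, where they were lowest. The SPF arrays stood between, at 8.27 and 8.30. The summed signal of the neutrophil markers was 1102 and 837 in SPF against 3484 and 697 in conventional cord, and their part in Ctsc was not tested. A further Ctsc probe had conventional replicate 2 above both SPF arrays (7.13 and 7.13 in SPF against 7.67 and 7.15), so only its high value on conventional replicate 1 matched these markers. Of the 3 Ctsc probes, the other two differed by 0.12 and 0.28, and the mean of the probes by 0.14.

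Ctsz, which encodes cathepsin Z, a carboxypeptidase, differed most between the replicates of each group. Its brightest probe stood at 8.20 and 5.98 on the SPF arrays and at 7.74 and 6.53 on the conventional arrays, and its further probe at 7.65 and 5.89 against 7.61 and 6.35. Both probes were thus high on replicate 1 and low on replicate 2 in either group. The gap between replicates was 2.22 log2 units in SPF and 1.21 in conventional cord, whereas the groups differed by 0.04 ± 0.70 (95% interval -1.62 to 1.70). Group differences of more than 2-fold in either direction are thus within the interval for Ctsz.

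**Figure D3:**
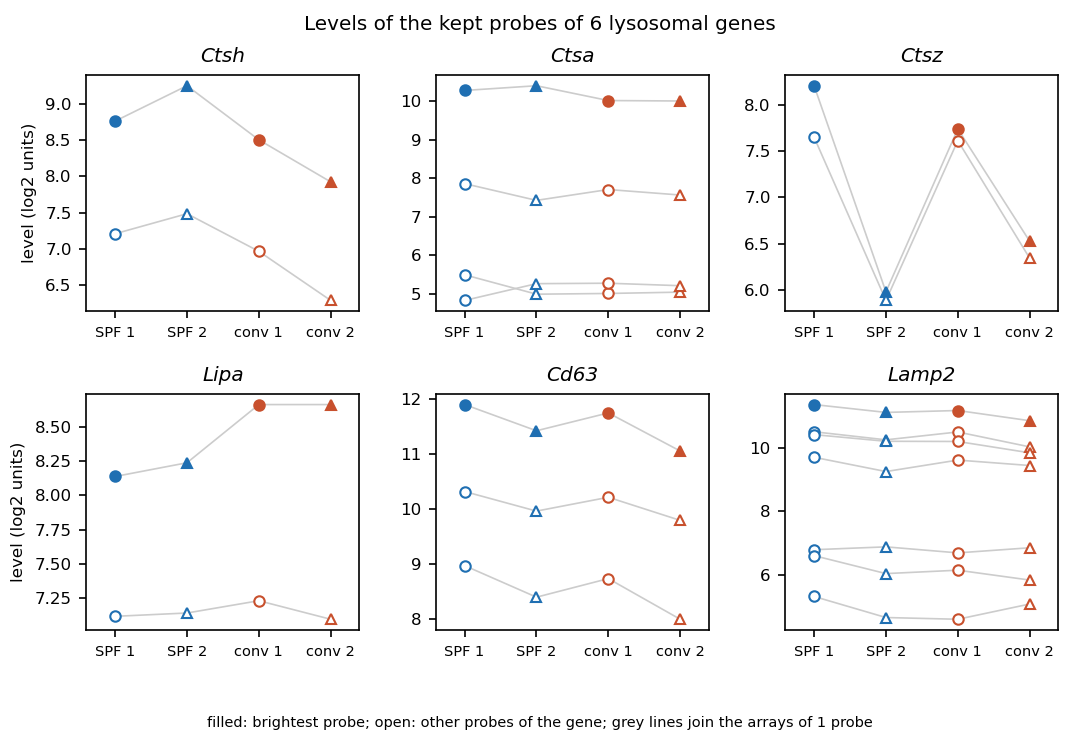
Level (y axis, log2 units of normalized signal) of every kept probe of 6 lysosomal genes on the 2 SPF (blue) and 2 conventional arrays (orange); filled symbols are the brightest probe of a gene and open symbols its other probes. The 2 probes of Ctsh run in parallel from 9.25 and 7.48 on SPF replicate 2 down to 7.92 and 6.28 on conventional replicate 2, those of Ctsz alternate with the replicate number, and the further probe of Lipa does not share the step of the brightest one.

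Of the 9 glycosidase genes, all were tested, none passed, and in all 9 the groups overlapped. Man2b1, lysosomal alpha-mannosidase, had the largest difference, with 10.49 and 10.0035 in SPF against 10.10 and 9.87 (-0.26 ± 0.19), and its further probe gave -0.20 ± 0.17. Gusb, beta-glucuronidase, stood at 9.10 and 8.92 against 8.93 and 8.64 (-0.22 ± 0.17). Its other 3 probes gave 0.09, -0.16 and -0.09, so the sign depended on the probe. Naglu, which removes N-acetylglucosamine from heparan sulfate, ran from 6.01 to 5.01 between the conventional arrays, where it was above background on 1, and differed by -0.20 ± 0.34.

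The remaining 6 glycosidases differed by -0.06 to -0.01. They are Gaa, the glycogen-degrading acid alpha-glucosidase, Hexa, the alpha subunit of beta-hexosaminidase, Glb1, beta-galactosidase, Neu1, neuraminidase, Gla, alpha-galactosidase A, and Galc, which degrades the myelin lipid galactosylceramide. Gla was above background on 1 array of each group. A further Galc probe was above background on both SPF arrays and on neither conventional array, with a bound of at least 1.15-fold lower there. It lies near background and passed the filter through the SPF arrays alone, so its direction is no support for a difference. That all 9 glycosidase differences were below 0 depended on conventional replicate 2, the lowest array in 7 of the 9. Without it, 3 of 9 were below 0 and the median was 0.05, against -0.06 with all arrays. Without either SPF array 6 of 9 were below 0.

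The sulfatase gene Arsb, which acts on dermatan sulfate, stood at 11.44 and 10.90 in SPF against 10.96 and 10.73 (-0.32 ± 0.19), and the groups overlapped. Its difference was -0.05 without SPF replicate 1. Arsa, which hydrolyses the myelin lipid sulfatide, stood at 9.55 and 9.56 against 9.34 and 9.48, without overlap and with a difference of -0.14 ± 0.13.

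Lipa, which encodes the acid lipase that frees cholesterol from its esters, was not called. It was the one lipid hydrolase whose 95% interval left out 0 before adjustment. Its brightest probe stood at 8.14 and 8.24 in SPF and at 8.66 on both conventional arrays, a difference of 0.47 ± 0.15 (95% interval 0.11 to 0.84, 1.39-fold higher) with an unadjusted p of 0.0176. The groups were separated by more than either within-group gap, and the difference stayed between 0.42 and 0.52 with any 1 array left out. With the authors' deposited value table the Lipa difference was 0.28. Its further probe, however, gave 7.12 and 7.14 against 7.23 and 7.10, a difference of 0.03 ± 0.19, and the mean of both probes gave 0.25. Asah1, acid ceramidase, differed by -0.05 ± 0.11. Ppt1, which removes palmitate from proteins, stood at 8.74 and 8.77 against 8.86 and 8.77 (0.06 ± 0.14).

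The 4 soluble activators and carriers were all tested, with 3 differences below 0 and a median of -0.08. Psap, the precursor of the saposins that lift glycolipids to their hydrolases, stood at 14.10 and 13.99 in SPF against 14.13 and 13.95 in conventional cord (-0.01 ± 0.11), and a further probe also gave -0.01. The interval for Psap ran from -0.27 to 0.26. Gm2a, the activator of ganglioside breakdown, stood at 11.27 and 11.26 against 11.33 and 11.30 (0.05 ± 0.11), a separation without overlap but of small size. Grn, which encodes progranulin, stood at 10.21 and 9.89 against 9.87 and 9.68 (-0.28 ± 0.16), and Npc2, the soluble cholesterol carrier, at 9.15 and 8.88 against 8.88 and 8.86 (-0.15 ± 0.16). In both genes SPF replicate 1 stood apart, and SPF replicate 2 was nearly level with conventional replicate 1. Without SPF replicate 1 the differences were -0.11 for Grn and -0.01 for Npc2.

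All 7 membrane protein genes were highest on SPF replicate 1. Lamp1, a main glycoprotein of the lysosomal membrane, stood at 13.14 and 12.85 in SPF against 12.84 and 12.85 in conventional cord, a difference of -0.15 ± 0.12 that was -0.01 without SPF replicate 1. Lamp2, its close relative with a role in autophagy, differed by -0.22 ± 0.15, and its other 6 probes ranged from -0.33 to 0.05. Cd63, a tetraspanin of late endosomes, stood at 11.90 and 11.42 against 11.75 and 11.05 (-0.26 ± 0.25), and all 3 of its probes were below 0. Its difference turned to 0.09 without conventional replicate 2 and was -0.61 without conventional replicate 1.

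Npc1, the membrane cholesterol transporter, was the most even of those below SPF, with 12.44 and 12.40 against 12.25 and 12.24. Its difference of -0.17 ± 0.10 had an unadjusted p of 0.130 and ranged from -0.19 to -0.15 with 1 array left out, and its other 3 probes were also below 0 (-0.24, -0.06 and -0.12). Mcoln1, a cation channel of the lysosome, was the only membrane protein gene with a difference above 0.1. It stood at 8.15 and 7.41 against 7.95 and 8.09 (0.24 ± 0.26), and its sign turned without SPF replicate 2 (-0.13). Scarb2, the receptor that carries beta-glucocerebrosidase to the lysosome, differed by 0.00 ± 0.20 and Cln3 by 0.03 ± 0.16.

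Set array by array, the level of each gene was expressed against its own mean over the 4 arrays. SPF replicate 1 was the highest array in 20 of the 35 genes (57.1%, against 27.4% of all features), and conventional replicate 2 the lowest in 18 (51.4%, against 25.0%). The median deviation of the 35 genes was 0.10 and -0.02 on the SPF arrays and 0.04 and -0.10 on the conventional arrays, so SPF replicate 2 fell between the conventional arrays. Proteases stood at 0.07 and 0.01 in SPF against -0.07 and -0.09. They were the only one of the 3 larger classes whose medians per array did not overlap between groups. Gene by gene, however, 5 of the 10 tested proteases had a difference below 0 and 5 above, with a median of -0.00. Among the cathepsins alone, 5 of 8 tested had a difference above 0, with a median of 0.02. Glycosidases stood at 0.09 and 0.02 against 0.07 and -0.21, and membrane proteins at 0.24 and -0.10 against 0.05 and -0.07. The absolute difference exceeded both within-group gaps in 7 of the 35 genes, or 20.0%, against 20.2% of all features.

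**Figure D4:**
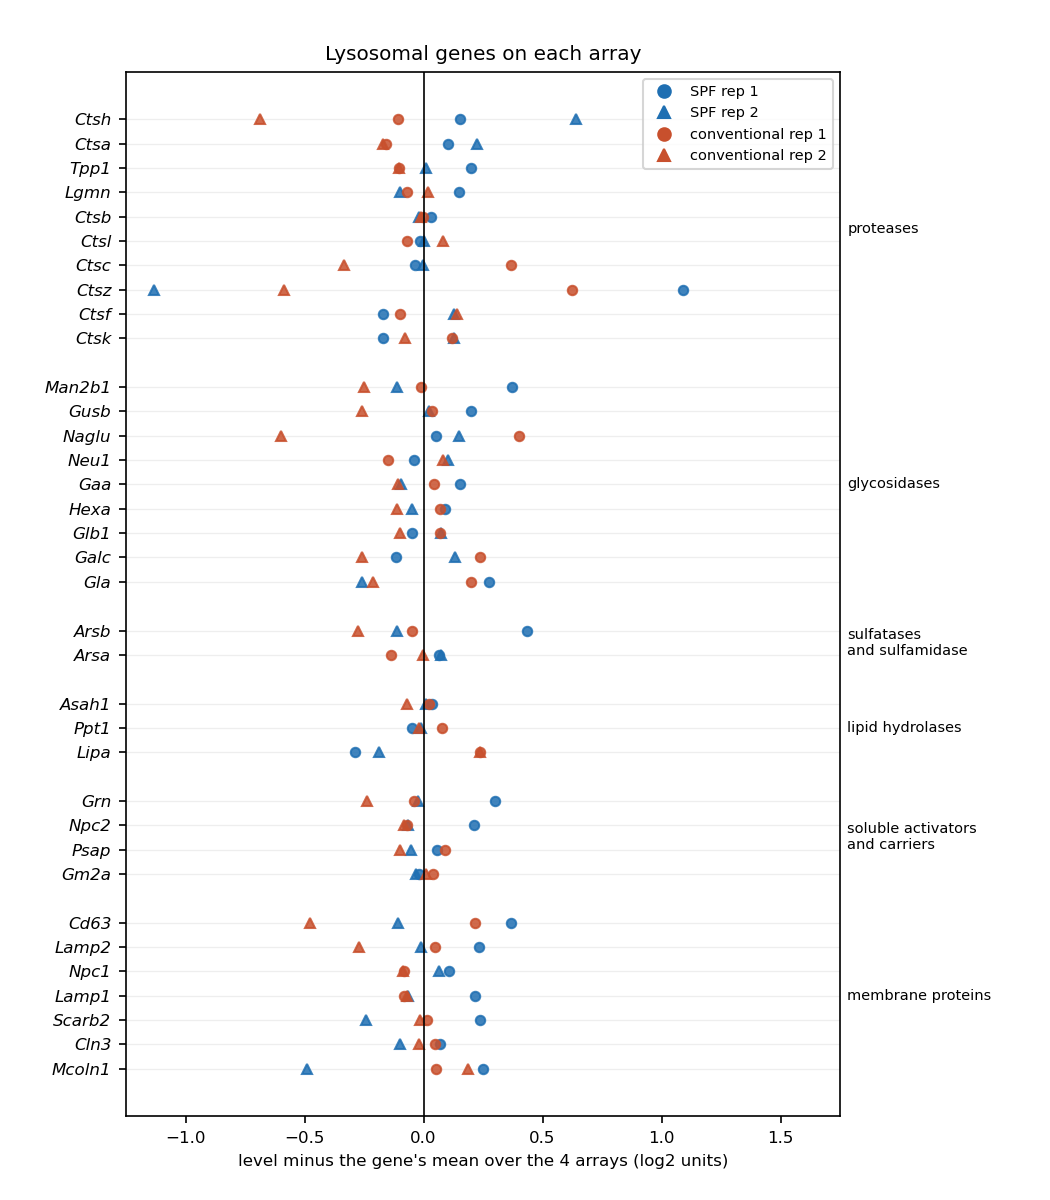
Level of each tested lysosomal gene on each array, as the distance from the gene's own mean over the 4 arrays (x axis, log2 units); blue is SPF, orange conventional, circles replicate 1 and triangles replicate 2. SPF replicate 1 is the rightmost symbol in 20 of the 35 genes and conventional replicate 2 the leftmost in 18, and Ctsz shows the widest split by replicate number.

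Marker lists of several cell types followed a like order across the arrays. Of 14 microglial markers with a probe 13 were tested, and Itgam was not above background on any array. SPF replicate 1 was the highest array in 9 of the 13 and conventional replicate 2 the lowest in 10. Their median deviation was 0.32 and -0.13 in SPF against 0.14 and -0.32 in conventional cord, the same order of arrays as over the 35 lysosomal genes. The summed signal of the 13 markers was 5079 and 3615 in SPF against 4745 and 3140. Of 7 oligodendrocyte markers 6 were tested and stood at 0.38 and -0.12 against -0.03 and -0.17. The 6 of 6 astrocyte markers stood at 0.17 and -0.13 against 0.15 and -0.18. The oligodendrocyte and astrocyte lists thus had that same order of arrays, which was not particular to microglia. The 6 tested neuronal markers of 9 had medians between -0.04 and 0.03.

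Blood and muscle markers shared the extremes of the lysosomal genes. All 4 red blood cell markers were highest on SPF replicate 1 and lowest on conventional replicate 2 (0.79 and 0.26 in SPF against -0.20 and -0.87), as were the 6 tested muscle markers of 7 (1.13 and -0.17 against -0.15 and -0.75). The 5 motor neuron markers ran the other way, all lowest on SPF replicate 1 and 4 of them highest on conventional replicate 2, with medians of -0.55 and -0.02 in SPF against 0.05 and 0.42. The part of the makeup of the dissected tissue in the lysosomal values was not tested.

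**Figure D5:**
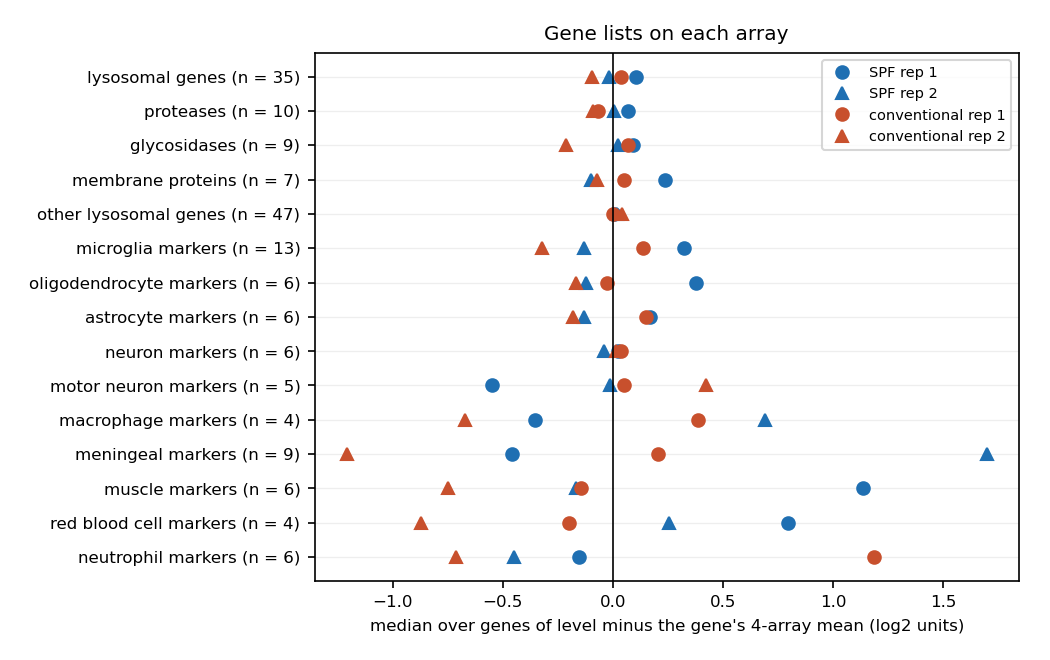
Median distance of the genes of each list from their own 4-array means (x axis, log2 units) on each array; n is the number of tested genes, blue is SPF, orange conventional, circles replicate 1 and triangles replicate 2. The 35 lysosomal genes have the order SPF replicate 1, conventional replicate 1, SPF replicate 2, conventional replicate 2. The microglial, oligodendrocyte and astrocyte markers share that order, while the 47 other lysosomal genes have medians from 0.00 to 0.04.

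Beyond the 38 genes, 61 further lysosomal genes were listed by function, and 47 of them were tested. None passed, 0 had an unadjusted p under 0.05, and 24 of 47 had a difference below 0, with a median of -0.01. Both conventional arrays lay below both SPF arrays in 6 (12.8%, against 15.1% of all features) and above in 8 (17.0%, against 15.6%). Those above include Slc36a1, which passed the filter through the conventional arrays alone. Among genes of the proton pump that acidifies the lysosome, 12 of 14 tested had a difference above 0, led by Atp6v0a1 (0.23 ± 0.15), Atp6v1h (0.19 ± 0.10) and Atp6v1d (0.12 ± 0.14), and their median was 0.08. All 6 tested genes of the sorting of enzymes by mannose phosphate tags had a difference below 0, with a median of -0.13: Nagpa -0.17 ± 0.23, the receptor gene M6pr -0.16 ± 0.14 and the sorting receptor gene Sort1 -0.13 ± 0.12 were the largest. None of these sorting genes separated the groups.

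Of the 10 other hydrolase genes tested, Fuca1, an alpha-fucosidase measured near background, differed by 0.24 ± 0.21, Hgsnat by 0.20 ± 0.17 and Pld3 by 0.19 ± 0.18. Ctss, the cathepsin of antigen-presenting cells, stood at 0.05 ± 0.22. Of the inhibitors of cysteine cathepsins, Cstb stood at 12.68 and 12.78 in SPF against 12.58 and 12.65, without overlap (-0.11 ± 0.10), and Cst3 differed by -0.07 ± 0.10, with overlap. In the membrane and transport list the largest differences measured in both groups were those of Mfsd8 (0.41 ± 0.25), Tmem192 (-0.26 ± 0.14) and Laptm5 (-0.25 ± 0.27). The probe of the amino acid transporter gene Slc36a1 was above background on neither SPF array, and only a bound of at least 1.002-fold higher in conventional cord can be given. It passed the filter through the conventional arrays alone, so its direction is no support for a difference. Tfe3, a transcription factor related to Tfeb, stood at 7.11 and 6.83 in SPF against 6.81 and 6.59 (-0.27 ± 0.22), without overlap.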

How the data were processed

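RNA from 4 arrays (2 SPF, 2 conventional) was measured on Illumina bead arrays. Per the labels' protocols it was extracted with TRIsure and turned into biotinylated cRNA. Each probe has a linear intensity, which the file headers call non-normalized, and, per the file headers, a p-value of detection. The authors' deposited value table, used as an alternative, holds normalized intensity on a linear scale whose transformation is unknown here; column medians were 216.5, 216.5, 216.5 and 216.6, and each column ranked probes like its own array (rank correlation 1, at most 0.923 with others). Per the submitters' processing notes lumi was used, with version and settings not given in the sources used here.

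The neqc procedure of limma 3.58.1 (R 4.3.3) corrected the background, added 16, quantile normalized and took log2. Negative controls were inferred from the detection p-values. Probes detected (p under 0.05) on at least 2 of 4 arrays were kept (21065 of 45281), and a gene was represented by its probe with the highest mean (14634 features, 11476 of them named). Of 45281 probes, 34885 have 1 symbol, 18 several and 10378 none in the platform annotation. Groups, taken from the sample titles, were compared by limma's two-sided moderated test (lmFit, then eBayes with trend); adjusted p-values (Benjamini-Hochberg, every feature) under 0.05 were calls. Probes of a gene were also fitted each as its own feature. With 2 arrays a group, the array number limits precision, and an exact permutation test could not go below p = 0.333. The model has no replicate block. Where no array of a group was above background, the fold is a bound: the brighter group's mean against the mean, per array, of the lowest value above background or the probe's own, if higher.

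All 38 genes are named; array values are given for those without overlap and an absolute difference of at least 0.2, the largest 2 of each class and a few fixed genes, with others added after their values were seen (Ctsc, Ctsz, Npc1, Naglu, Gm2a). In each further list the 3 largest differences are named, and Ctss and Laptm5 were added. The genes, classes and lists were chosen with earlier results of these data known. No slide or scan batch is given in the files.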

Additional observations from a re-analysis of the deposited data

How the results depend on the processing

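Across the 10 other processing choices and the 4 fits that left out 1 array, 0 lysosomal genes were called. The count of all features called was 0 under 9 of the 10 choices, 5 with the replicate block, and 0 to 2 with 1 array left out (2 without conventional replicate 2). The replicate block changed no lysosomal call; same-numbered arrays deviated together with a correlation of 0.20 over features, and the labels give the numbers no shared source. Lysosomal genes with an unadjusted p under 0.05 numbered 8 of 35 with the block, where 8.45% of all features passed, 1 with the mean of a gene's probes (3.10% of features) and 3 as reported (3.03%). Lysosomal differences below 0 numbered 24 to 26 of 35 under most choices, 22 of 33 with the stricter filter and 27 of 38 with none, but 31 of 35 with median scaling, against 24 of 35 as reported, where the median of all features moved to -0.04. With every probe as a feature they numbered 44 of 63. The protease median of -0.00 became -0.044 with median scaling and ranged from -0.13 to -0.052 with 1 array left out. The median over all 35 genes ranged from -0.15 to 0.00055 in those fits, the glycosidase median from -0.22 to 0.048, and the count of glycosidases below 0 from 3 to 8 (3 without conventional replicate 2). The membrane protein median was -0.15 and reached 0.02 without conventional replicate 2 and -0.01 without SPF replicate 1. Leaving out 1 array moved Cd63 between -0.61 and 0.086, a reversal without conventional replicate 2. Of the 35 genes, 15 kept their sign in all 4 of those fits and in the 10 other choices. The other detection filters, every probe as a feature, eBayes without trend and the replicate block left the difference of each gene's brightest probe unchanged. Its sign was thus fixed in advance under these choices. A further 48 sign changes were of differences within their standard error. The causes were not tested. Groups of 2 arrays leave wide intervals, and dim genes such as Gla, Naglu and Ctsl are measured near background.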

Other observations

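The split of Ctsz by replicate number was noticed after its values were seen, and all features were then listed by the same measure. Replicate 1 exceeded replicate 2 by at least 1 log2 unit in both groups in 17 of 14634 features, 11 of them named genes, and replicate 2 exceeded replicate 1 by as much in 11. Ranked by the smaller of its 2 gaps in the direction of replicate 1 above replicate 2, Ctsz was 7th of the 14634. The named genes beside Ctsz were Myl1, Atp2a1, Cox6a2, Cox8b and Flnc, which are genes of muscle, and Aplnr, Ebf2, Cd44, Bglap2 and F2rl2. Skeletal muscle markers were highest on SPF replicate 1 (6 of 6 tested) and lowest on conventional replicate 2 (6 of 6), a different order from that of Ctsz, which was lowest on SPF replicate 2. Replicate 1 lay above replicate 2 in both groups, by any amount, in 18 of the 35 lysosomal genes, against 30.3% of all features. It lay below in both groups in 4 of the 35, against 32.3% of all features. The labels give no property that pairs the replicate numbers across groups.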
